A study of Mus musculus with 8 samples.

Results

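Pparg and 8 genes that fat cells use to take up and store fatty acids were followed in 3T3-L1 cells: Fabp4, Fabp5, Lpl, Cd36, Aqp7, Acvr1c, Pck1 and Angptl4. The 9 genes were chosen by name, with earlier results of these data known, and 11 probes on the array mapped to them, out of 39383 probes for 32422 genes and unnamed transcripts. Of the 9 genes, 8 passed the filter on dim probes (well above background on at least 2 of 8 arrays), as did 26460 genes and transcripts in all, and Pck1 did not. 3T3-L1 is an established line of mouse preadipocytes, fibroblast-like cells that become fat cells when a confluent culture is given hormones. The sh8 cells carry, by stable transfection, shRNA-8 against the long noncoding RNA slincRAD, and the WT cells are the unmodified parent line, so the controls carry no hairpin. RNA was taken from sh8 and from WT cells at days -2, 0, +2 and +4, with 1 Agilent one-colour array for each line and day. Both lines were grown in 10% newborn calf serum, reached confluence at day 0, and were then given 0.5 mM isobutylmethylxanthine, 1 µM dexamethasone and 167 nM insulin. The labels do not say whether the sh8 line is a single clone, and a line with a control hairpin was not among the samples, so an effect of slincRAD and any effect of carrying a hairpin or of selection cannot be told apart. The level of slincRAD itself was not analysed here.

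PPARG is a nuclear receptor that binds DNA together with a retinoid X receptor and switches on the genes by which a fat cell takes up, carries and stores fatty acids. Lpl releases fatty acids from the triglycerides of lipoproteins, Angptl4 inhibits that lipase, Cd36 helps fatty acids across the plasma membrane, and Fabp4 and Fabp5 carry them inside the cell. Aqp7 is a channel for glycerol, Pck1 is the enzyme by which fat cells make the glycerol backbone of triglycerides from non-sugar precursors, and Acvr1c encodes ALK7, an activin receptor of fat cells that restrains lipolysis. PPARG binds as a dimer to DR1 elements, a pair of AGGTCA half-sites in the same direction with 1 base between them.

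RefSeq promoter sequences (GRCm38.p6, 250 bases before to 50 after each annotated start) were at hand for 5 of the 9 genes, with 9 windows for Pparg, Aqp7, Cd36, Pck1 and Acvr1c. 3 of them are shown, for Pparg, Aqp7 and Cd36, the genes with a window that holds the half-site to which PPARG and many other nuclear receptors bind. Each is printed 5′ to 3′ on the strand of its gene, with the AGGTCA half-site, or TGACCT where it lies on the other strand, in capitals. The windows are chr6:115362099-115362398 on the plus strand for Pparg, chr4:41047913-41048212 on the minus strand for Aqp7 and chr5:17835847-17836146 on the minus strand for Cd36.
Pparg: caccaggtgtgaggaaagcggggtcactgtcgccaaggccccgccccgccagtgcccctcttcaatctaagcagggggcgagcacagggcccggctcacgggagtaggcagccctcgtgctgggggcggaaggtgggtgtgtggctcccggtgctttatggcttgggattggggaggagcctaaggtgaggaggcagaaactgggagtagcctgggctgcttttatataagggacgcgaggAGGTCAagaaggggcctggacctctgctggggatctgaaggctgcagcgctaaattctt
Aqp7: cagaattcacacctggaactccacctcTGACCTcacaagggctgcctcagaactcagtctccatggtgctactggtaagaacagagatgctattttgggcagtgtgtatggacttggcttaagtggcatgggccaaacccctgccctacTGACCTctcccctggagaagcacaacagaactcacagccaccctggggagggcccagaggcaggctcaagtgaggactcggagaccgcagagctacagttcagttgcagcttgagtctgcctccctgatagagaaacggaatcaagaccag
Cd36: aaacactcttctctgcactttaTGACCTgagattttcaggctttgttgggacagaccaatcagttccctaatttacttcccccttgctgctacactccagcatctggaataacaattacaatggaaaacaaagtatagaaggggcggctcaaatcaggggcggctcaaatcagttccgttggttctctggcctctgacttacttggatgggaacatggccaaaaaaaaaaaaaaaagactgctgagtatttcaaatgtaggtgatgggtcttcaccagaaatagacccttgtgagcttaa

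In the Pparg window the half-site starts at position -9 relative to the annotated start, and it is on the strand of the gene. A TATAAA motif on the opposite strand starts at position -29 of the same window. The Aqp7 window holds 2 half-sites on the opposite strand, at positions -223 and -101, and the Cd36 window holds 1 at -228. Of the other windows, 1 of the 2 other Pparg windows (chr6:115360894-115361193) has a half-site at -28, and the other Aqp7 window (chr4:41048087-41048386), which overlaps the first, has its half-site at -49. Both strands were searched for AGGTCA, for DR1 in full, for a looser DR1 made of AGGNCA repeats, for the C/EBP letters TTGCGCAA and TTGCATCA, and for TATAAA. Neither DR1 form nor either C/EBP word occurred in the 9 windows, which says only that those letters are not in these stretches. Across 32851 promoters of the same length, 16.3% held AGGTCA, 0.0396% the full DR1 and 0.381% the looser one, 0.183% and 0.895% the C/EBP words, and 13.6% TATAAA. The half-site is thus a common word, and every full DR1 holds it.

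On each array a level is the log2 of the processed intensity minus that array's 75th percentile, so 0 is the brightness of that percentile, and levels of different probes are not compared. The 75th percentile ran from 759.9 to 1239.5 intensity units, the share of probes well above background was 64.9% to 81.7%, and saturated spots numbered 0. The arrays of days -2 and 0 lay on one slide and those of days +2 and +4 on another, and on each slide the sh8 arrays held positions 3 and 4 and the WT arrays positions 1 and 2, so position and line cannot be told apart. Precision is limited by there being only 8 arrays. The labels do not call the arrays separate cultures, so p-values for sh8 against WT measure how far the difference varied over the 4 days, which may be partly technical. All 7 preadipocyte markers were well above background on all 8 arrays, with a summed level of 178 to 199 times the 75th percentile in sh8 and 151 to 205 in WT. Of 6 mature fat cell markers, 5 were well above background on each array of days +2 and +4, against 1 or 2 on the arrays of days -2 and 0. The share of all probes well above background was also larger on the later arrays, at 72.4% to 81.7% against 64.9% to 68.5%. Adipoq was well above background on the 4 later arrays and Lep on 0 arrays. The summed level of the 6 markers at days +2 and +4 was 0.276 to 0.331 in sh8 and 0.341 to 0.972 in WT, against at most 0.126 before. The labels call the samples of all days fat cells, and on the arrays of days -2 and 0 most of these markers were not well above background.

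**Figure D1:**
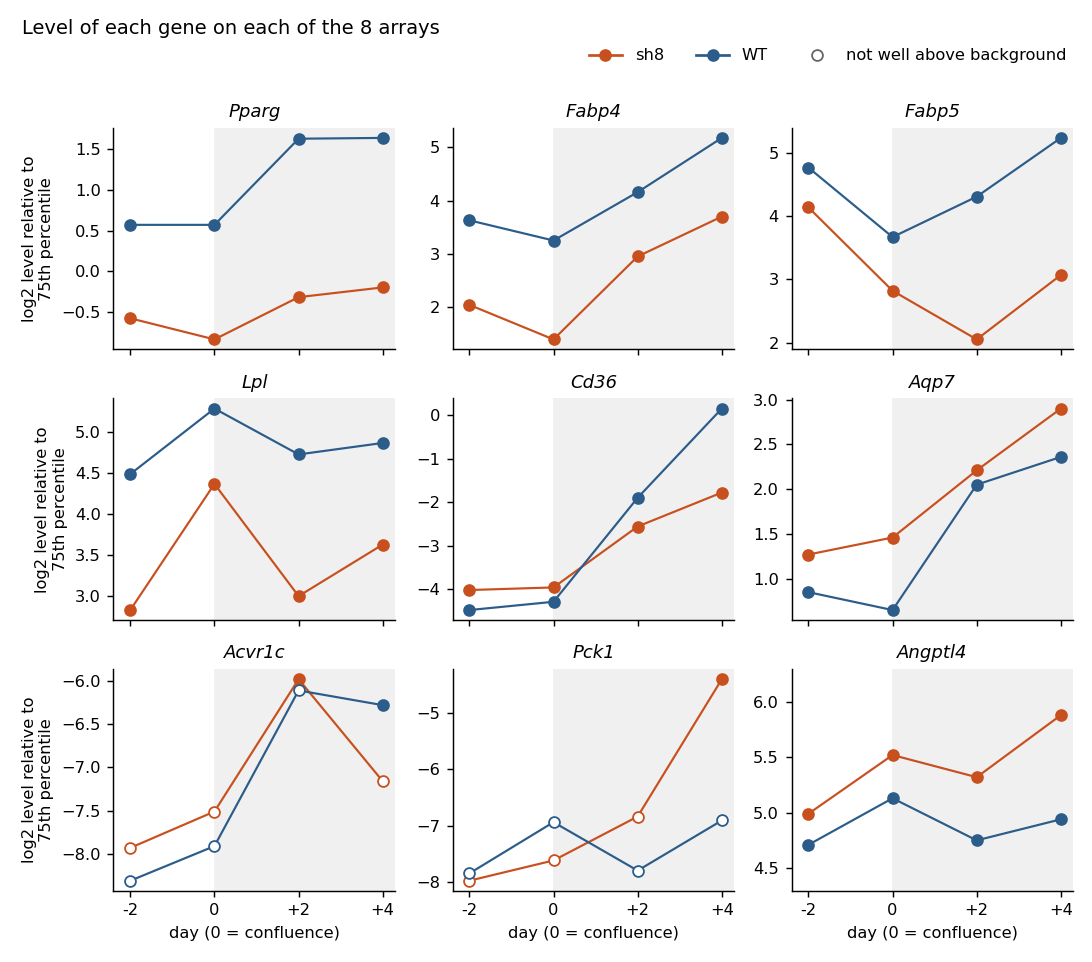
Log2 level relative to the array's 75th percentile (y axis, its own scale in each panel) of each of the 9 genes by day (x axis) in sh8 (orange) and WT (blue) cells, 1 array per point; the grey field is the time after induction and open circles are arrays on which the probe was not well above background. For Pparg and Lpl all 4 sh8 points lie below all 4 WT points, Angptl4 and Aqp7 run higher in sh8 on each day, and the Cd36 lines cross between days 0 and +2.

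The first question was which of the genes differed between the lines across the 4 days. Of the 8 genes tested, 4 were lower in sh8 (Pparg, Fabp4, Fabp5 and Lpl) and 1 was higher (Angptl4) by limma at an adjusted p under 0.05, while Aqp7, Cd36 and Acvr1c did not pass. Among all genes tested, 10.3% were lower and 16.8% higher in sh8. The median change over the 8 genes was -0.92, beside 0.13 over all genes. In 2 of the 8 (Pparg and Lpl) all sh8 arrays lay below all WT arrays, as in 7.09% of all genes. The difference had the same sign on each day for 6, with sh8 lower for Pparg, Fabp4, Fabp5 and Lpl, against 20.4% of all genes, and higher for Aqp7 and Angptl4, against 32.3% of all genes.

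Pparg, the receptor itself, had levels of -0.58, -0.84, -0.32 and -0.20 in sh8 at days -2, 0, +2 and +4, against 0.57, 0.57, 1.63 and 1.64 in WT. The highest sh8 array stayed below the lowest WT array, and the gap was present on the arrays of day -2, before confluence and hormones. The mean level was -0.49 ± 0.28 in sh8 and 1.1 ± 0.62 in WT (SD over 4 days). The fitted difference was -1.59 ± 0.17 (SE, log2, 3.01-fold lower in sh8, adjusted p = 0.0117). By day it was -1.15, -1.41, -1.95 and -1.84.

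Lpl, whose protein is secreted and works on lipoproteins outside the cell, had levels of 2.83, 4.37, 3.00 and 3.63 in sh8, against 4.49, 5.29, 4.73 and 4.87 in WT. Here too the groups did not overlap, and in both lines day 0 was the highest. The fitted difference was -1.39 ± 0.17 (2.61-fold lower, adjusted p = 0.0137), with daily values of -1.66, -0.92, -1.73 and -1.24. A second Lpl probe, also well above background on every array, read -0.01, 1.47, -0.20 and 0.24 in sh8 and 1.51, 2.05, 1.51 and 1.5 in WT, again with each sh8 array below all WT arrays.

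Angptl4, the inhibitor of that lipase, ran the other way. Its levels were 4.99, 5.52, 5.32 and 5.88 in sh8, against 4.71, 5.13, 4.75 and 4.94 in WT. The ranges overlapped, but on each day the sh8 array was the higher one, by 0.28, 0.38, 0.57 and 0.94. The fitted difference was 0.54 ± 0.14 (1.46-fold higher, adjusted p = 0.0480). The call was lost with no filter (adjusted p = 0.0660), with the slide as a block (0.109), on the second slide alone (0.0603) and without day -2 (0.0651).

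Fabp4, the fatty acid carrier typical of fat cells, had levels of 2.04, 1.39, 2.95 and 3.70 in sh8, against 3.63, 3.25, 4.16 and 5.18 in WT. On each day the sh8 array was the lower one, with differences of -1.59, -1.86, -1.21 and -1.48. The ranges overlapped, since sh8 at day +4 stood above WT at days -2 and 0. The fitted difference was -1.53 ± 0.13 (2.90-fold lower, adjusted p = 0.0101). Fabp5, the related carrier that many cell types make, had levels of 4.14, 2.82, 2.05 and 3.07 in sh8, against 4.77, 3.67, 4.31 and 5.24 in WT. Its daily differences of -0.62, -0.84, -2.27 and -2.16 were smaller before induction than after it. The fitted difference was -1.47 ± 0.35 (2.78-fold lower, adjusted p = 0.0381), a call lost with quantile scaling (0.0506), with no filter (0.0517) and with the slide as a block (0.0791).

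Cd36, the fatty acid transporter and scavenger receptor, had levels of -4.02, -3.96, -2.56 and -1.78 in sh8, against -4.48, -4.29, -1.90 and 0.15 in WT. The sh8 arrays were the higher ones by 0.46 and 0.33 at days -2 and 0, and the lower ones at days +2 and +4, with differences of -0.66 and -1.93. Averaged over the days this gave -0.45 ± 0.44 (adjusted p = 0.465), which did not pass. Aqp7, the glycerol channel, had levels of 1.27, 1.46, 2.21 and 2.90 in sh8, against 0.85, 0.65, 2.05 and 2.36 in WT. The sh8 array was the higher one on each day, by 0.43, 0.81, 0.16 and 0.54, but the fitted difference of 0.49 ± 0.13 did not pass (adjusted p = 0.0536). It did pass with quantile scaling (0.0382), with the authors' deposited values (0.0366), with normexp (0.0259) and over only the genes above background on all 8 arrays (0.0291).

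The remaining pair was dim. Pck1 was well above background on a single array, that of sh8 at day +4, with a level of -4.40, and read -7.98, -7.62 and -6.84 at days -2, 0 and +2 in sh8, against -7.85, -6.94, -7.80 and -6.91 in WT. A gene not well above background has only a bound there, taken as the higher of its own level and the lowest level among probes well above background on that array. Against that bound Pck1 was at least 4.78-fold higher in sh8 than in WT at day +4, a comparison of 2 arrays with no test. Acvr1c was well above background on 2 arrays, sh8 at day +2 (-5.98) and WT at day +4 (-6.28), and its fitted difference between the lines of 0.01 ± 0.25 did not pass (adjusted p = 0.985). Its levels were -7.93, -7.51, -5.98 and -7.16 in sh8, against -8.31, -7.91, -6.11 and -6.28 in WT, and a second Acvr1c probe was well above background on 0 arrays.

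**Figure D2:**
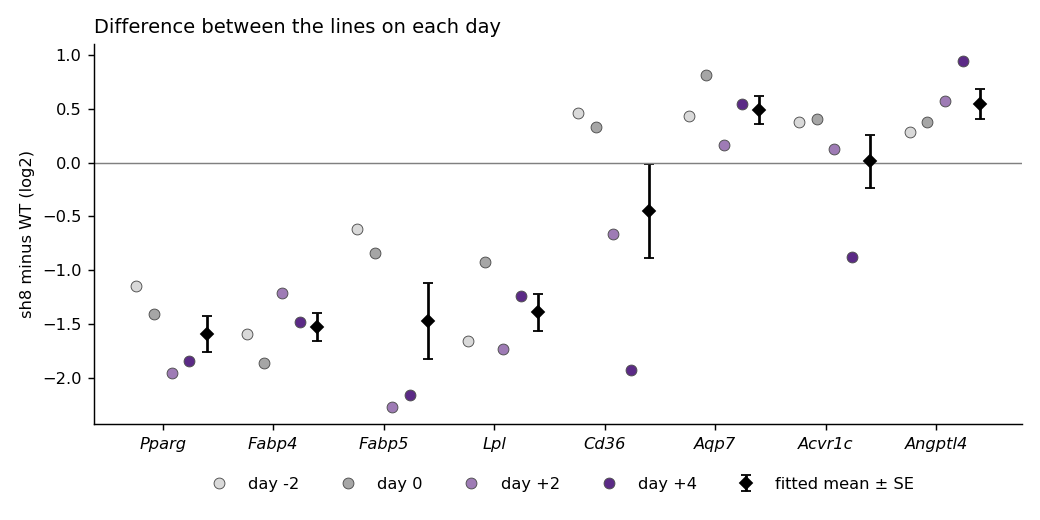
Difference sh8 minus WT in log2 level (y axis) for the 8 genes that passed the filter, with 1 point per day and, as black diamonds, the fitted mean over the 4 days with its standard error. Pparg, Fabp4, Fabp5 and Lpl lie below 0 on each day, Angptl4 and Aqp7 above 0, and the Cd36 and Acvr1c points fall on both sides of 0, with most Acvr1c arrays not well above background.

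The 5 calls between the lines depended on which days entered the fit, and so did the calls in the 7 gene lists described below. In those lists 0 genes passed without day 0, day +2 or day +4, or on the first slide alone. The loss was thus not particular to these 5 genes. Leaving out day 0, day +2 or day +4 left 0 of the 8 genes past the threshold, with adjusted p from 0.0542 to 0.0689 for Pparg, Fabp4 and Lpl, and the 2 days of the first slide alone left 0 as well (0.121 to 0.179 for the genes called). Without day -2, Pparg, Fabp4, Fabp5 and Lpl stayed past it, and on the second slide alone the same 4 did (adjusted p from 0.0301 to 0.0364). With 1 day left out, Pparg lay between -1.73 and -1.47, Fabp4 between -1.64 and -1.43, Lpl between -1.54 and -1.27, Fabp5 between -1.76 and -1.21 and Angptl4 between 0.41 and 0.63. Macrophage markers were brighter in sh8, with a summed level of 6.14 to 7.33 against 4.60 to 5.28 times the 75th percentile in WT, over 8 markers of which 5 were well above background in both lines before induction. So were the endothelial, kidney tubule, lung epithelium and red blood cell markers on each day, with values given below. The other marker lists were not brighter in sh8 on every day. Of all genes tested, 60.3% had a fitted difference above 0. Macrophages also make several of these 9 genes, and the part of a macrophage signal in the results was not tested. In bulk RNA fewer cells that express a gene and less RNA per cell cannot be told apart.

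The next question was what changed over time. Each day comparison averages both lines, adjoining steps share the arrays of a day, and their values are given side by side only. At day 0 against day -2, 0 of 26460 genes passed by limma (0.0% in either direction), with 6712 at an unadjusted p under 0.05. Of the 8 genes, Lpl at 1.17 ± 0.24 (adjusted p = 0.0860) and Fabp4 at -0.51 ± 0.19 (0.187) had an unadjusted p under 0.05. Lpl was 1.54 higher at day 0 in sh8 and 0.80 higher in WT, and it passed with normexp and among the genes above background on all 8 arrays (adjusted p = 0.0457 and 0.0417). Fabp5 was lower at day 0 in both lines, by -1.32 in sh8 and -1.10 in WT, without passing (-1.21 ± 0.49, adjusted p = 0.210).

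After induction, at day +2 against day 0, 3 of the 8 genes passed and all were higher, against 9.0% of all genes higher and 2.89% lower. These days lie on different slides, so slide and day cannot be told apart in this step. Fabp4 rose by 1.24 ± 0.19 (2.36-fold, adjusted p = 0.0259), by 1.56 in sh8 and 0.91 in WT. Aqp7 rose by 1.07 ± 0.19 (2.11-fold, adjusted p = 0.0328), by 0.75 in sh8 and 1.40 in WT. Acvr1c passed too (adjusted p = 0.0482), but it was not well above background on either array of day 0 and was so on 1 of day +2, and against the bound no fold can be given. It passed the filter only through arrays of days +2 and +4, so its call lends the count no support. That call was lost with quantile scaling (0.131), with the authors' deposited values (0.0798) and with normexp (0.0823).

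Cd36 had the largest fitted change of the 8 in this step, 1.89 ± 0.62 (1.39 in sh8 and 2.39 in WT), yet it did not pass (adjusted p = 0.116). Pparg at 0.79 ± 0.24 (0.0964) did not pass either, with 0.52 in sh8 and 1.06 in WT. Lpl went the other way, at -0.96 ± 0.24 (0.0662), and Angptl4 at -0.29 ± 0.20 (0.372) and Fabp5 at -0.07 ± 0.49 (0.939) did not pass. In Fabp5 the lines had opposite signs, with -0.78 in sh8 and 0.65 in WT.

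At day +4 against day +2, both on the second slide, 0 of 26460 genes passed by limma (0.0% in either direction), with 1437 at an unadjusted p under 0.05 and 1 gene past the threshold with quantile scaling or with the authors' deposited values. Fabp4 (0.88 ± 0.19) and Aqp7 (0.50 ± 0.19) had an unadjusted p under 0.05, and their adjusted p was 0.839. Fabp4 was higher at day +4 by 0.74 in sh8 and 1.02 in WT. Cd36 was higher by 0.78 in sh8 and by 2.05 in WT, the widest gap between the lines among the 8 genes in this step. The Pparg differences were 0.12 in sh8 and 0.00 in WT.

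**Figure D3:**
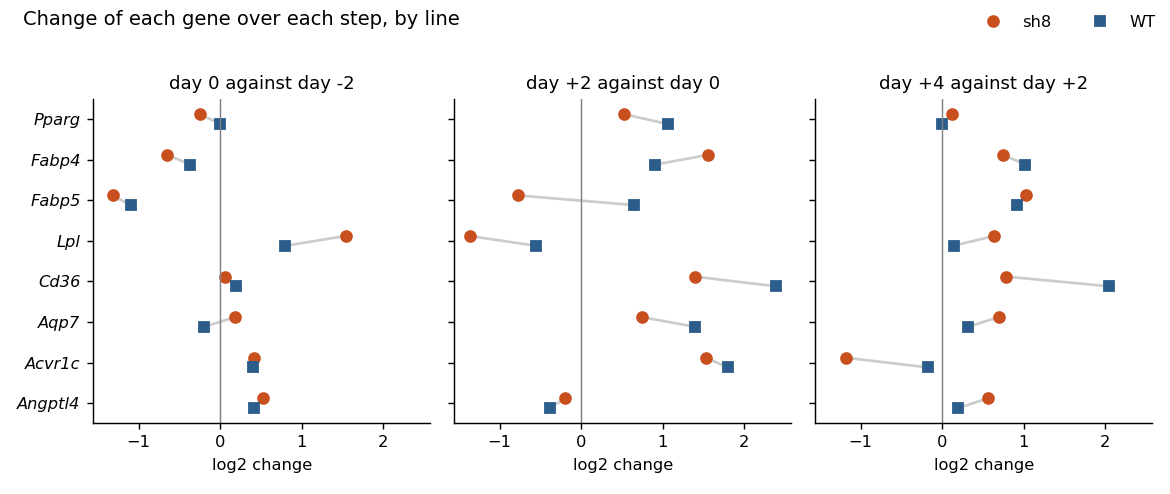
Log2 change of the 8 genes over each step between neighbouring days (x axis), with sh8 as orange circles above and WT as blue squares below in each row, 1 pair of arrays per point and no error bar. Fabp4 and Aqp7 lie to the right of 0 in both lines at day +2 against day 0, Fabp5 lies on opposite sides of 0, and the widest gap at day +4 against day +2 is that of Cd36.

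A further comparison asked whether the difference between the lines was itself different after induction (days +2 and +4) than before it (days -2 and 0). By limma 0 of 26460 genes passed (0.0% in either direction), with 5268 at an unadjusted p under 0.05. With normexp, and among the genes above background on all 8 arrays, 1119 passed under each. Of the 8 genes, Fabp5 at -1.48 ± 0.16 (adjusted p = 0.121), Pparg at -0.62 ± 0.17 (0.197) and Cd36 at -1.69 ± 0.48 (0.206) had an unadjusted p under 0.05. Fabp5 passed under both settings (adjusted p = 0.0179 and 0.0217). The period after induction is also the second slide, so the period and the slide cannot be told apart.

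For Cd36 the change between day 0 and day +4 differed most between the lines among the 8 genes. In sh8 it was 4.53-fold higher at day +4 than at day 0, and in WT 21.8-fold, each from 1 pair of arrays. For Fabp4 these figures were 4.94-fold in sh8 and 3.8-fold in WT, for Aqp7 2.72-fold in sh8 and 3.27-fold in WT, and for Pparg 1.55-fold in sh8 and 2.10-fold in WT. Both lines therefore had more Fabp4 and Aqp7 signal at day +4 than at day 0. These days lie on different slides, so slide and day cannot be told apart in these figures.

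Signals of some tissues that these cultures should not hold moved with the second slide. The summed level of 8 lung epithelium markers was 10.6 to 11.4 times the 75th percentile in sh8 and 7.49 to 10.0 in WT at days +2 and +4, against 0.603 to 0.623 in sh8 and 0.374 to 0.393 in WT at days -2 and 0, and all 8 were well above background on the second slide. Alveolar macrophage markers stood at 14.0 to 22.0 in sh8 and 20.4 to 23.4 in WT on that slide, against 6.34 to 7.95 in sh8 and 3.90 to 5.06 in WT on the first. Red blood cell markers stood at 4.73 to 5.67 in sh8 and 3.79 to 4.00 in WT, against 0.739 to 0.75 in sh8 and 0.478 to 0.509 in WT on the first. Endothelial markers showed no step of that size in summed level. They were at 1.96 to 2.01 in sh8 and 1.46 to 1.67 in WT, against 1.75 to 2.14 in sh8 and 1.30 to 1.44 in WT on the first. Of these 7 markers at least 5 were well above background on each array of the second slide, against 3 or 4 on the first. Among all probes the share well above background was 72.4% to 81.7% on the second slide and 64.9% to 68.5% on the first. Kidney tubule markers made a smaller step than lung epithelium or red blood cell markers. They were at 0.3 to 0.307 in sh8 and 0.204 to 0.242 in WT, against 0.165 to 0.212 in sh8 and 0.129 to 0.133 in WT on the first. Keratinocyte markers (2.89 to 3.16 in sh8 and 2.17 to 3.13 in WT over the 8 arrays) and liver markers (33.9 to 46.3 in sh8 and 29.3 to 48.8 in WT, nearly all Apoa2, with Alb and Apoa1 well above background on 0 arrays) showed no step of that size. Cd36, Lpl and Fabp5 are made in lung and its macrophages as well, and the part of these signals in the day +2 and day +4 levels was not tested. The differences between sh8 and WT on the first slide, at days -2 and 0, were -1.15 and -1.41 for Pparg, -1.59 and -1.86 for Fabp4 and -1.66 and -0.92 for Lpl. On the second slide they were -1.95 and -1.84 for Pparg, -1.21 and -1.48 for Fabp4 and -1.73 and -1.24 for Lpl. For Fabp5 the differences were -2.27 and -2.16 on the second slide, against -0.62 and -0.84 on the first, and for Cd36 -0.66 and -1.93 on the second, against 0.46 and 0.33 on the first. The slide and the period cannot be told apart, and the part of the marker signals in these differences was not tested.

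**Figure D4:**
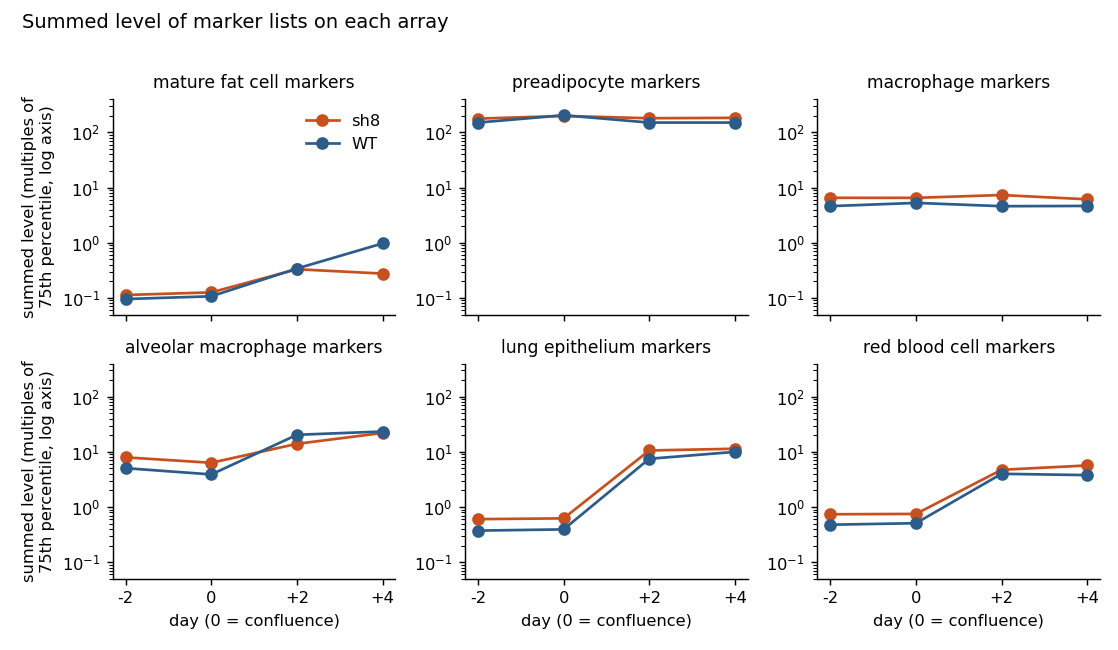
Summed level of 6 of the 10 marker lists (y axis, log scale, multiples of the array's 75th percentile) by day in sh8 (orange) and WT (blue) cells, 1 array per point. The lung epithelium, red blood cell and alveolar macrophage markers step up between days 0 and +2 in both lines, the preadipocyte markers stay near 151 to 205, and the mature fat cell markers reach 0.972 in WT and 0.331 in sh8 at most.

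The rest of the pathway was read from 7 lists of genes, described by counts and medians. For sh8 against WT the medians stand beside 0.13 for all genes and the counts beside 16.8% of all genes higher and 10.3% lower, and the calls below share the dependence on the days given above, since without day 0, day +2 or day +4 0 genes of any list passed. Among the other PPARs and the retinoid X receptors, 1 of 5 rose and 0 fell (median 0.24). Ppara, the fatty acid sensor of liver, rose by 0.57 ± 0.09 (adjusted p = 0.0204), although its other probes differed by 0.04 and 0.16. Rxra, Rxrb, Rxrg and Ppard did not pass.

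Of 17 PPARG coregulators 6 fell and 1 rose (median -0.22), beside 10.3% lower and 16.8% higher among all genes. The 1 that rose, Prdm16 (also named below), was well above background on only 2 sh8 arrays and 1 WT array. Ppargc1b, a coactivator of mitochondrial genes, fell by 1.69 (adjusted p = 0.00819) and differed by -1.57, -1.74, -1.82 and -1.63 on the 4 days. The deacetylase Sirt1 (-0.68, 0.0170) and the corepressor enzyme Hdac3 (-0.56, 0.0192) fell as well, both being known to repress PPARG activity. Ncor1, a corepressor, was at -0.70 by its brightest probe (0.0228), but its other probes were at 0.45 and 0.13, so its direction is not settled. Of 22 regulators upstream of Pparg 6 fell and 0 rose (median -0.15). Ebf1 (-0.81, adjusted p = 0.0148) and Zfp423 (-0.72, 0.0150, with other probes at -0.30 and -0.51) are factors that commit cells to the fat lineage, and both fell. E2f1, a cell cycle factor that also binds the Pparg promoter, fell by 1.07 (0.0284), and Gata2, which holds preadipocytes back, fell by 0.71 (0.0324).

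Of 24 other genes of fatty acid uptake and activation, 4 were called higher and 2 lower (median 0.19), shares near those of all genes. Acsl1, which couples fatty acids to coenzyme A, fell by 0.92 ± 0.09 (adjusted p = 0.0105, and -0.81 by its second probe), and the lipoprotein receptor Scarb1 fell by 1.62 ± 0.17 (0.0115, and -1.41). The transporter Slc27a1 rose by 0.43 (0.0308). Fabp7, the brain-type carrier, is counted among the 4 but passed the filter through 3 sh8 arrays alone, so its call lends the count no support. With 0 WT arrays well above background it was at least 1.68-fold higher in sh8, and it did not pass with normexp (adjusted p = 0.0604).

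Of 32 other PPARG target genes of fat cells, 5 fell and 4 rose (median 0.01). Cyp4b1, a cytochrome P450 enzyme, fell by 1.62 ± 0.20 (adjusted p = 0.0142) and the peroxisome gene Pex11a by 0.72 (0.0134). Cpt1a, which brings fatty acids into mitochondria for oxidation, rose by 1.16 (0.0137, and 0.60 by its second probe). Pnpla3, a lipase-like enzyme, rose by 1.35 (0.0134), but only 3 sh8 and 2 WT arrays had it well above background, and it did not pass with normexp (0.0563). The list thus held calls in both directions, with a median below that of all genes. Of 14 partners of Aqp7 and Pck1 in glycerol handling, 2 fell and 2 rose (median -0.23). The acyltransferase Gpam fell by 0.73 (0.0178) and the malate dehydrogenase Mdh1 by 0.62 (0.0295). The kinase Pdk1 rose by 0.60 (0.0237) and the glycerol phosphate dehydrogenase Gpd1 by 0.84 (0.0482, and 0.0744 with quantile scaling).

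In the activin pathway in which the Acvr1c receptor works, 8 of 19 genes rose and 2 fell (median 0.25), beside 16.8% higher and 10.3% lower among all genes. Smad2 and Smad3, the proteins that carry the signal to the nucleus, rose by 1.04 ± 0.13 (adjusted p = 0.0146) and 0.73 ± 0.12 (0.0214, and 0.49 by the second Smad3 probe). Smad7, which inhibits the pathway, rose by 0.79 (0.0212). Tgfbr2, the TGF-beta receptor, rose by 0.86 (0.0137, and 0.51 by its second probe). With quantile scaling 6 of this list were higher and 1 lower.

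**Figure D5:**
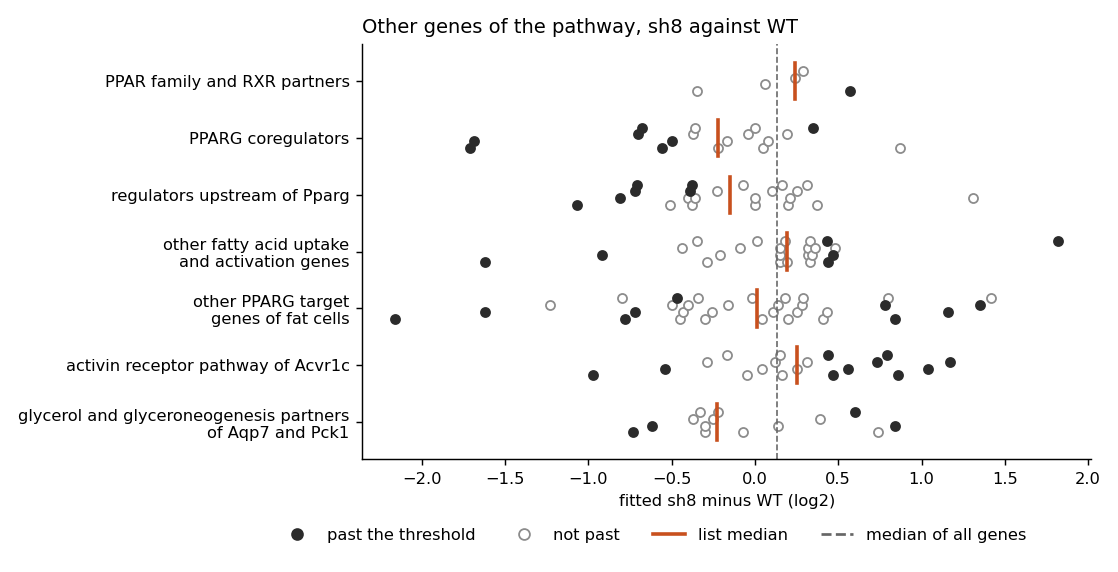
Fitted difference sh8 minus WT (x axis, log2) of each tested gene in the 7 lists; filled points passed the threshold, open ones did not, the orange bars are list medians and the dashed line is the median of all genes (0.13). Coregulators and upstream regulators have most filled points left of 0 and the activin pathway has 8 filled points right of 0, while PPARG target genes lie on both sides.

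At day +2 against day 0 the counts were 6 higher and 2 lower of 32 other PPARG target genes (median 0.47, beside 0.11 over all genes), and 2 higher and 2 lower with quantile scaling. Among all genes 9.0% were higher and 2.89% lower. The 6 include Slc2a4 and Hcar2, named here after their values were seen, which passed the filter only through later days and were well above background on 0 arrays of day 0. Against the bound Slc2a4 was at least 1.24-fold higher at day +2 and Hcar2 has no fold, so these 2 calls lend the count no support. Dgat2, which makes triglyceride in its last step, rose by 2.58 ± 0.23 (adjusted p = 0.0105) and Cyp4b1 by 2.16 ± 0.29 (0.0201). Pcx, the pyruvate carboxylase that feeds glyceroneogenesis, was the 1 of 14 glycerol genes to pass, at 1.73 ± 0.14 (0.00901). In the activin list 2 rose and 2 fell, with the activin antagonist Fst at 1.75 (0.0206) and the receptor Acvr1b at 1.04 (0.0236). Of 22 upstream regulators 3 fell and 0 rose, among them Dlk1, a preadipocyte protein that restrains fat cell formation (-0.92, 0.0253), and Klf2, a repressor of Pparg (-1.58, 0.0391). With quantile scaling 1 of the 22 was lower, and the Klf2 call was lost (0.0514). Among coregulators 2 genes were called higher and 1 lower. The corepressor Nrip1 rose by 1.41 (0.0112). The other was Prdm16, which was well above background on 1 array of day +2 and 0 of day 0 and has no fold against the bound, so its call lends the count no support. The 5 PPAR and retinoid X receptors and the 24 other uptake genes gave 0 calls by limma, with 1 and 7 at an unadjusted p under 0.05 and, with normexp, 1 and 2 calls. In the comparisons of day 0 with day -2, of day +4 with day +2 and of the difference after and before induction, 0 genes of the 7 lists passed by limma.

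Likeness to Pparg was measured by Pearson's r over the 8 arrays, among 7676 named genes well above background on all of them with a range of at least 1. The 5 most alike were Rab4a (r = 0.989), Psmg1 (0.989), Zbtb21 (0.986), Synj2bp (0.986) and Rccd1 (0.986), and 318 genes had an r over 0.9. For Fabp4 they were Scfd2 (0.977), Phtf2 (0.973), Cinp (0.972), Shq1 (0.969) and Gnpat (0.966), with 104 genes over 0.9. All these arrays share 2 lines, 4 days and 2 slides, so such values describe the pattern over the arrays and carry no test. Among the 8 genes themselves r with Pparg was 0.88 for Fabp4, 0.71 for Fabp5, 0.67 for Lpl and 0.55 for Cd36, but 0.11 for Aqp7 and -0.63 for Angptl4. Cd36 and Aqp7 had an r of 0.83 with each other.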

How the data were processed

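RNA of 3T3-L1 cells was measured on 8 one-colour Agilent arrays, although the series text names another maker. Per the file headers, the authors scanned and quantified them with Agilent Feature Extraction 11.0.1.1 against build mm9, and the deposited files give a processed intensity and a median and background intensity per spot. The authors also deposited a log2 value table of the same arrays. Across probes, each column's highest correlation was with the array of its own sample (0.994 to 0.9998), and every column had a median of 6.38. Its normalization is not stated in the labels or headers, so it was used as an alternative.

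Control spots (1377 of 44397) and outlier spots were left out, and with them 46 probes that then had no spot on some array. Spots of a probe were averaged, and values were log2 processed intensity minus the array's 75th percentile. Symbols came from RefSeq accessions (GRCm38.p6), which named 27207 of 39383 probes, and gene coordinates of that build are given only for its promoter sequences. The filter kept probes well above background on at least 2 of 8 arrays. A gene was represented by its brightest such probe. limma 3.58.1 in R 4.3.3 was fitted over all 26460 genes and transcripts with day as a factor and line (3 residual degrees of freedom), or with the interaction of line and period (2), with Benjamini-Hochberg adjustment and a threshold of 0.05. Differences and changes are on the log2 scale of these levels, and a fold is 2 to the power of such a value. The fit was tested on simulated data. Tables and figures were made with Python 3.11.15, pandas 2.3.3 and matplotlib 3.10.9.

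Alternatives were quantile scaling, normexp (offset 50), the authors' table, no filter, a filter on all 8 arrays, the mean of all probes, the slide as a block, each slide alone, and leaving out each day. The files hold no mean signal, so normexp used the median signal. From each list the text names up to 4 genes past the threshold with the lowest p for sh8 against WT and up to 2 for each other comparison. The members, the lists and the naming rule were chosen with earlier results of these data known.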

Additional observations from a re-analysis of the deposited data

Results flagged for a closer look

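The Cd36 difference between the lines changed sign at induction. The sh8 array was the higher one at days -2 and 0 (0.46 and 0.33) and the lower one at days +2 and +4 (-0.66 and -1.93), a change of -1.69 ± 0.48 on the log2 scale. The test of that change by limma did not pass (adjusted p = 0.206, unadjusted p = 0.0270), and the period after induction is also the second slide.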

How the results depend on the processing

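For sh8 against WT, 7155 genes passed, 62.0% of them higher, and the median of all genes was 0.13. With quantile scaling 50.7% of the calls were higher, with normexp 50.5% and with the authors' values 51.0%, and the medians were 0.02, 0.01 and 0.02. Of the 8 genes 5 passed, but 3 with no filter and 3 with the slide as a block, and on the first slide alone 0 of them and 0 genes overall. Leaving out 1 day gave 0 to 4208 genes and 0 to 4 of the 8. With day 0 against day -2, where 0 passed, normexp gave 1746 genes, the authors' values 10 and the filter on all 8 arrays 1669, with 1 of the 8 (Lpl) under the first and last. With day +2 against day 0, 3145 genes passed (75.7% higher), but 1950 with quantile scaling (62.1% higher), 1963 with the authors' values (61.3%) and 2428 with normexp (54.0%). With day +4 against day +2, quantile scaling and the authors' table gave 1 gene each. The change of the difference after induction gave 1119 genes and 1 of the 8 (Fabp5) with normexp and with the filter on all 8 arrays. The cause of these shifts was not tested, except that fewer arrays entered the smaller fits.

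Changes of sign concerned values that had not passed, apart from Acvr1c at day +2. Cd36 between the lines was 0.40 on the first slide alone and from -0.75 to 0.0429 with 1 day left out, above 0 without day +4. Acvr1c between the lines was -0.22 with quantile scaling, -0.11 with normexp, -0.31 with the authors' table, -0.37 on the second slide alone and -0.12 to 0.30 with 1 day left out. With no filter its second probe, well above background on 0 arrays, was taken and read -1.34 at day +2 against day 0 and 1.17 for the change after induction. At day 0 against day -2, Aqp7 was 0.0119, 0.0262 and 0.0118 with quantile scaling, normexp and the authors' table, and Acvr1c was -0.00844 with normexp. The change for Lpl after induction was -0.57 to 0.17 with 1 day left out. No paired analysis was possible because all arrays carry the same replicate number, apart from the comparison of the lines within each day that the model with day as a factor already makes. What limits these data is the number of arrays and, for Acvr1c and Pck1, the signal over background.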
